A study of Sus scrofa with 24 samples.

Results

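Intramuscular adipocytes were compared between day 4 and day 8 of differentiation in vitro. The comparison used the 3 small RNA libraries of IMF-4d and the 3 of IMF-8d, 6 of the 24 libraries of the study, and the miRNA table entries whose TPM averaged 1 or more across the 24 columns. These were 430 of 1587 entries, namely 270 of the 363 known miRNAs and 160 of the 1224 newly predicted ones. The entries nearest to that limit were novel_miR_994 at 1.002 TPM inside it and novel_miR_207 at 0.990 TPM outside it.

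The cells of both groups came from the longissimus dorsi muscle of Yorkshire piglets aged 6 days, as preadipocytes freed with collagenase and grown in culture. At near confluency they received IBMX, dexamethasone and insulin for 2 days and then insulin alone for 2 days, so that IMF-4d closes the hormone treatment and IMF-8d follows 4 days in growth medium. No sorting of the cells is described, and no source used here ties a library to 1 of the 3 piglets, so p-values measure the spread between these libraries, which may be technical. Subcutaneous cells from the back fat of such piglets, 3 animals being described for both depots, serve for comparison (BF-4d and BF-8d, 3 libraries each). They were induced in the same way but freed with less collagenase over a shorter time, so depot and isolation cannot be told apart. No miRNA defines an adipocyte, so the label of the cells was checked only against miRNAs of other cell types, given further on. In bulk libraries, fewer cells of a type and less RNA per cell cannot be told apart.

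A miRNA is cut from 1 arm of a short RNA hairpin and guides a silencing complex to mRNAs that pair with its seed, bases 2 to 8 from its 5′ end. miRNAs with one seed form a family with overlapping targets, and hairpins close together in the genome are often made from one transcript. In fat cells, miR-30 members are known to favour adipogenesis by repressing RUNX2, miR-27 and miR-130 to repress the adipogenic factor PPARG, and miR-146, miR-155 and miR-210 to be induced by inflammatory signals or low oxygen.

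The mature sequences of the miRNAs that carry the comparison are shown first, because several changed entries share a seed or a hairpin cluster. They were read from the study's list of identified miRNAs, and the seed is in capitals. Positions are those of the hairpin precursor, found by exact match in Sscrofa11.1.
ssc-miR-146a-5p: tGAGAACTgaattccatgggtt
ssc-miR-146b: tGAGAACTgaattccataggc
ssc-miR-30a-5p: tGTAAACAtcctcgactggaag
ssc-miR-30b-5p: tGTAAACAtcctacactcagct
ssc-miR-30c-5p: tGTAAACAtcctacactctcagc
ssc-miR-30d: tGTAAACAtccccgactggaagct
ssc-miR-29b: tAGCACCAtttgaaatcagtgtt
ssc-miR-29c: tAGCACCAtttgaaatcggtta
ssc-miR-181a: aACATTCAacgctgtcggtgagtt
ssc-miR-181b: aACATTCAttgctgtcggtgggtt
ssc-miR-132: tAACAGTCtacagccatggtcg
ssc-miR-212: aCCTTGGCtctagactgcttact
ssc-miR-224: cAAGTCACtagtggttccgttta
ssc-miR-452: aACTGTTTgcagaggaaactga
ssc-miR-210: cTGTGCGTgtgacagcggctga
ssc-miR-218-5p: tTGTGCTTgatctaaccatgt
ssc-miR-218b: tTGTGCTTgatctaaccatgtg
ssc-miR-129b: cTTTTTGCggtctgggcttgc
ssc-miR-486: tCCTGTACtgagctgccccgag
ssc-miR-24-2-5p: gTGCCTACtgagctgatatcagt
ssc-miR-7-5p: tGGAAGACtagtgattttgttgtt
ssc-miR-7857-3p: aTTGTTCTccaacctggctctt
novel_miR_667: tGTGGCTGtggcgtatgccaac
Both miR-146 entries carry the seed GAGAACT, both miR-29 entries AGCACCA, both miR-181 entries ACATTCA, and the 4 miR-30 entries GTAAACA. ssc-miR-132 and ssc-miR-212 stem from neighbouring hairpins but differ in seed, because the entry named ssc-miR-212 holds the 5′ arm of its hairpin.

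Between 10567876 and 15536269 reads were counted on miRNAs in the 6 libraries, so 1 read is worth from 0.0644 to 0.0946 TPM and 3 reads, taken as the floor, from 0.193 to 0.284 TPM. Floors and count intervals cover counting error only, since PCR copies were not removed. The 10 most abundant miRNAs took from 89.0% to 92.4% of the reads, and none of them was a DE-miRNA. TPM values are shares of one total, and the share of ssc-miR-21-5p, the most abundant, lay between 52.98% and 56.1% on day 4 and between 39.4% and 45.0% on day 8. The median log2 fold change of the 430 entries was 0.18, and median-of-ratios scaling of the libraries brought it to 0.03, a shift of -0.15.

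Most of the miRNAs that changed were higher on day 8. Of the 430 entries, 56 (13.0%) were DE-miRNAs, with an FDR under 0.05 by limma on log2(TPM + 1) and a fold change above 1.5. Higher on day 8 were 53 (12.3%) and lower 3 (0.698%), and the median log2 fold change of the 53 was 1.06. After median-of-ratios scaling, 37 entries were called higher, all of them among the 53 (8.6%), and 11 lower (2.56%), namely the same 3 and 8 more. The share higher among called entries moved from 94.6% to 77.1%. edgeR on whole reads called 43 higher and 22 lower (66.2% higher), and DESeq2 39 and 23 (62.9%). Both count models thus called more falls than limma did on either scale, while 41 of the 53 rises were called by edgeR as well. The libraries of the 2 days did not overlap for 165 of the 430 entries (38.4%), 131 of them higher (30.5%) and 34 lower (7.91%), nor for any of the 56, and an exact permutation test of 3 against 3 cannot go below p = 0.1.

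The 53 risers were minor miRNAs by share. They held 0.605% to 0.705% of the reads in the IMF-4d libraries and 1.31% to 1.45% in the IMF-8d libraries, with entries of one sequence counted once. On day 8 their mean levels ran from 0.848 TPM (novel_miR_11) to 3640 TPM (ssc-miR-129a-5p), with a median of 45.7 TPM. With any 1 of the 6 libraries left out, 28 of the 53 were called in each of the 6 fits and 25 were not in at least 1. IMF-8d replicate 2 weighed most, since without it 31 were higher and 1 lower.

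**Figure D1:**
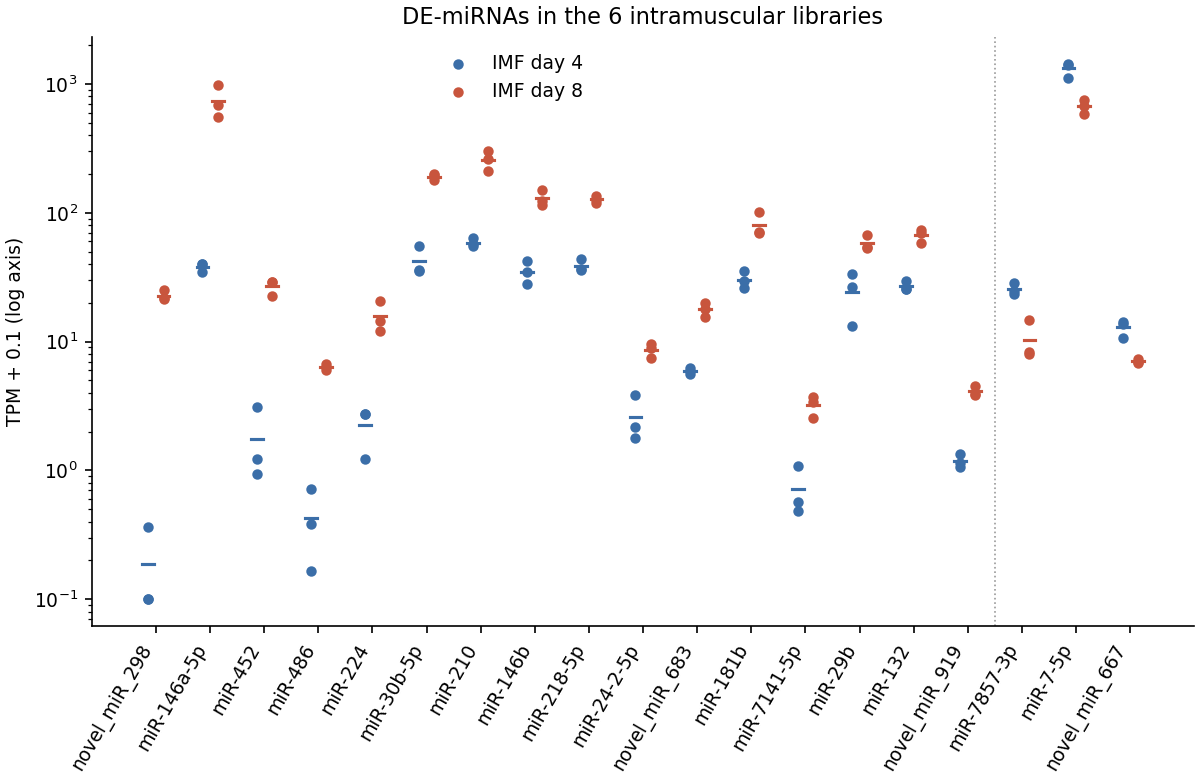
TPM plus 0.1 on a log axis of the 16 largest rises (1 entry for miR-218) and the 3 falls, with 1 point per IMF-4d (blue) or IMF-8d (red) library and a bar at the group mean. No red point overlaps the blue points of its miRNA. The widest gap is that of novel_miR_298, from at most 0.266 TPM to at least 21.4 TPM, and the 3 falls stand right of the dotted line.

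The miR-146 pair and miR-155, known as targets of NF-kB that restrain or accompany inflammatory signalling, rose together. ssc-miR-146a-5p had 39.8, 34.4 and 39.8 TPM in the IMF-4d libraries and 985, 682 and 557 TPM in the IMF-8d libraries. The lowest day 8 library thus lay far above the highest day 4 library, although the day 8 libraries differed among themselves. The log2 fold change was 4.21 (SE 0.21, limma adjusted p = 3.29e-05), the highest of any known miRNA. Its hairpin lies at chr16:63044261-63044338 on the minus strand, in no annotated protein-coding or long non-coding gene.

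ssc-miR-146b, with the same seed but another gene, had 41.9, 34.7 and 27.7 TPM on day 4 and 151, 124.2 and 114 TPM on day 8. Every day 8 library was above the day 4 libraries (log2 fold change 1.88 ± 0.19 SE, limma adjusted p = 8.35e-04). Unlike ssc-miR-146a-5p, which stood at 55.8 TPM on day 0 and 43.2 on day 2, ssc-miR-146b had gone from 42.6 to 7.68 TPM between day 0 and day 2 before it stood at 34.8 on day 4. ssc-miR-155-5p, made from the BIC transcript, had 301, 368 and 380 TPM on day 4 and 890, 681 and 592 on day 8, without overlap (log2 fold change 1.03 ± 0.18 SE, limma adjusted p = 9.91e-03). The list of these miRNAs has 5 entries, of which 3 passed the filter and 3 rose, beside 12.3% of all 430 entries. The same number rose with any 1 library left out and after median-of-ratios scaling, and 2 rose when no filter was applied.

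ssc-miR-452 and ssc-miR-224, made from one intron of GABRE, a subunit of the GABA receptor, were low on day 4 and rose. ssc-miR-452 had 3.02, 0.837 and 1.14 TPM on day 4 and 28.8, 28.9 and 22.6 TPM on day 8. The day 4 libraries were all low and the groups stood far apart (log2 fold change 3.46 ± 0.31 SE, limma adjusted p = 3.61e-04). ssc-miR-224 had 2.66, 2.64 and 1.14 TPM on day 4 and 20.5, 14.2 and 12.1 TPM on day 8, again without overlap (log2 fold change 2.41 ± 0.29 SE, limma adjusted p = 1.70e-03). The hairpins lie on the strand of GABRE, within chrX:123283427-123284559, and were called in every alternative in which they were fitted.

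ssc-miR-210, the miRNA most strongly tied to hypoxia-inducible factor, had 63.3, 55.1 and 57.6 TPM on day 4 and 301, 213 and 260 TPM on day 8. The day 4 libraries were close to each other and to days 0 and 2, at 67.9 and 61.2 TPM, so the difference arose after day 4. Its log2 fold change was 2.11 (SE 0.16, limma adjusted p = 2.66e-04), and the hairpin lies at chr2:335271-335346 on the minus strand outside annotated genes.

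The pair ssc-miR-132 and ssc-miR-212, known to be transcribed under CREB, rose from one locus at chr12:48162625-48163135. ssc-miR-132 had 25.7, 29.2 and 25.5 TPM on day 4 and 73.7, 58.4 and 69.6 TPM on day 8, in clearly separate groups (log2 fold change 1.29 ± 0.15 SE, limma adjusted p = 1.58e-03). ssc-miR-212 went from 4.44, 4.70 and 3.41 TPM to 13.8, 9.62 and 7.69 TPM (log2 fold change 1.11 ± 0.24 SE, limma adjusted p = 0.0212). The second call was less firm, since without IMF-4d replicate 1 or 3 or IMF-8d replicate 1 or 2 its adjusted p lay between 0.0515 and 0.0738.

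Of the 10 miR-30 entries, 5 rose and 5 were not called, beside 12.3% higher among all 430 entries. ssc-miR-30b-5p rose most, from 36.0, 35.0 and 54.8 TPM to 195, 199 and 178 TPM, with no overlap (log2 fold change 2.19 ± 0.19 SE, limma adjusted p = 3.61e-04). Its neighbour ssc-miR-30d, within 10 kb on chromosome 4 and far more abundant, had 2626, 2900 and 2500 TPM on day 4 and 4952, 3489 and 3600 TPM on day 8 (log2 fold change 0.57, limma adjusted p = 0.0632). ssc-miR-30a-5p had 813, 827 and 543 TPM on day 4 and 1534, 1305 and 1443 TPM on day 8, the highest day 8 level of a called miR-30 entry (log2 fold change 0.99 ± 0.19 SE, limma adjusted p = 0.0128). The other arm of its hairpin, ssc-miR-30a-3p, rose by the same amount within error (1.10 against 0.99 on the log2 scale).

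Both arms of the miR-30c hairpin were called as well. ssc-miR-30c-5p had 118, 103 and 123 TPM on day 4 and 214, 177 and 164 TPM on day 8, and ssc-miR-30c-3p 3.02, 5.41 and 4.54 against 8.77, 7.35 and 9.99 TPM. These were the weaker calls of the family, with log2 fold changes of 0.68 and 0.88 and limma adjusted p of 0.0229 and 0.0394. The family's median log2 fold change was 0.62 beside 0.18 over all 430 entries, and 0.44 beside 0.03 after median-of-ratios scaling, when 3 of the 10 were called and ssc-miR-30c-1-3p lay at -0.02. Leaving out IMF-8d replicate 1 left 2 called (ssc-miR-30a-5p then had an adjusted p of 0.0631), and leaving out each other library left 3 or 4.

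In the miR-29 family, repressors of collagen and other matrix mRNAs, ssc-miR-29b and ssc-miR-29c rose and the far more abundant ssc-miR-29a-3p was not called. ssc-miR-29b had 33.6, 26.3 and 13.1 TPM on day 4 and 52.8, 67.2 and 54.5 on day 8 (log2 fold change 1.31 ± 0.32 SE, limma adjusted p = 0.0372). Replicate 3 of day 4 was the lowest library and the groups did not overlap. The adjusted p was 0.0642 without IMF-4d replicate 2 and from 0.083 to 0.124 without an IMF-8d replicate, and after median-of-ratios scaling the call was lost. ssc-miR-29a-3p had 745, 662 and 789 TPM on day 4 and 1006, 854 and 768 TPM on day 8, which overlap. Thus the 2 members that rose make up little of the family, whose summed level was 691 to 806 TPM on day 4 and 828 to 1064 TPM on day 8.

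ssc-miR-181a and ssc-miR-181b, from one cluster at chr1:265497249-265499196 that lies opposite to an intron of NR6A1, rose in every fit that left out 1 library. ssc-miR-181b had 29.6, 25.7 and 35.3 TPM on day 4 and 102, 70.3 and 69.5 TPM on day 8 (log2 fold change 1.38 ± 0.20 SE, limma adjusted p = 4.87e-03). ssc-miR-181a had 48.6, 37.9 and 59.4 TPM on day 4 and 123, 108 and 94.99 TPM on day 8 (log2 fold change 1.16 ± 0.20 SE, limma adjusted p = 8.11e-03). Neither pair of groups overlapped. ssc-miR-181d-5p, of the same seed, was at 7.19 and 8.44 TPM on the 2 days and was not called.

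Among miRNAs held to steer mesenchymal cells between bone, cartilage and fat, miR-218 rose while miR-138 and both arms of miR-140 were not called. The entries ssc-miR-218 and ssc-miR-218-5p hold the same values, and ssc-miR-218b, whose sequence is 1 base longer, nearly the same, so the 3 are described together. They had 43.7, 36.7 and 35.7 TPM on day 4 and 135, 126.5 and 120 TPM on day 8, in tight and separate groups (log2 fold change 1.69 ± 0.14 SE, limma adjusted p = 2.66e-04). The hairpins lie in 2 places, an intron of SLIT2 on chromosome 8 and an intron of SLIT3 on chromosome 16, and the reads do not tell which was transcribed.

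ssc-miR-129b and ssc-miR-129a-5p, which share their mature sequence, were the most abundant risers. ssc-miR-129b had 1297, 1853 and 1532 TPM on day 4 and 3878, 3310 and 3731 TPM on day 8, and ssc-miR-129a-5p differed from it by at most 2 TPM in a library (log2 fold change 1.23 ± 0.16 SE, limma adjusted p = 2.60e-03). The day 8 level was above that of days 0 and 2 too, at 1330 and 2189 TPM. The opposite arm, ssc-miR-129a-3p, was at 40.2 and 52.0 TPM and was not called.

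In 2 hairpin clusters of the X chromosome some entries rose and the rest had estimates above 0. Of all 430 entries, 282 had estimates above 0 and 53 (12.3%) rose. In the cluster of miR-424, miR-503, miR-450 and miR-542 (chrX:110381587-110387981), known for repressing cell cycle genes, ssc-miR-424-5p, ssc-miR-542-3p and ssc-miR-450a rose, 3 of 10 entries. ssc-miR-542-3p had 228, 236 and 275 TPM on day 4 and 356, 519 and 438 TPM on day 8 (log2 fold change 0.81, limma adjusted p = 0.0179). These calls hung on single libraries, since none of the 10 was called without IMF-8d replicate 2 or without IMF-8d replicate 3, 1 without IMF-4d replicate 1, and 1 after median-of-ratios scaling. In the cluster of miR-532, miR-500, miR-362 and miR-660 (chrX:43705258-43714144), 3 of 6 entries were called and none after median-of-ratios scaling, without IMF-4d replicate 1 or without any 1 of the IMF-8d replicates.

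Beyond these, a single member was called in several lists, which in lists of 8 or more entries is close to or below the 12.3% called higher over all entries. ssc-miR-24-2-5p rose from 3.73, 1.67 and 2.08 TPM to 7.32, 9.42 and 8.84 TPM (log2 fold change 1.48 ± 0.24 SE, limma adjusted p = 7.49e-03), 1 of 8 entries of the miR-23, miR-24 and miR-27 clusters. The same hairpin's abundant arm, ssc-miR-24-3p, was at 597 and 640 TPM and was not called, and ssc-miR-27b-3p, which is known to repress PPARG, was at 8900 and 7275 TPM (log2 fold change -0.28, limma adjusted p = 0.491). Other single calls were ssc-miR-26b-5p (log2 fold change 0.63, 1 of 4 tested entries), hosted by CTDSP1, ssc-miR-196b-5p (0.66, 1 of 8) of the brown fat list, ssc-miR-493-5p (0.69, 1 of 13) of the imprinted DLK1-DIO3 region and ssc-miR-194a-5p (0.72, 1 of 3). The first 3 of these were lost after median-of-ratios scaling, and without IMF-8d replicate 2 their adjusted p was 0.135, 0.135 and 0.132.

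Several families with well-known parts in adipogenesis or proliferation had no DE-miRNA between the 2 days. Among them were 11 let-7 and miR-98 entries (median log2 fold change 0.20), 12 entries of miR-17-92 and its paralogs (-0.09), 5 of miR-130, miR-301 and miR-454 (-0.25), 5 of miR-148 and miR-152 (0.37), 6 of miR-99, miR-100 and miR-125 (-0.16) and 4 of miR-143 and miR-145 (-0.18). These medians lie on both sides of the 0.18 of all entries. In all, 13 of the 30 lists with a tested entry held no DE-miRNA. Over all 430 entries 13.0% were called, a share at which a short list may hold none, so nothing is read from these counts about a single family. ssc-miR-148a-3p, the second most abundant miRNA, had 131853, 172549 and 136754 TPM on day 4 and 177613, 247593 and 264570 TPM on day 8, with a log2 fold change of 0.63 (SE 0.23, limma adjusted p = 0.112). An effect of that size was not called at this spread. Of the other most abundant miRNAs, ssc-miR-151-3p (8836 to 13140 TPM on day 4, 13772 to 20274 on day 8), ssc-miR-381-3p (16772 to 21775, then 24748 to 33184) and ssc-miR-199b-5p (6566 to 7771, then 8718 to 9134) did not overlap between the days and were not called. ssc-let-7i-5p, ssc-miR-143-3p and ssc-miR-10b overlapped, with log2 fold changes of 0.10, 0.09 and 0.38.

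**Figure D2:**
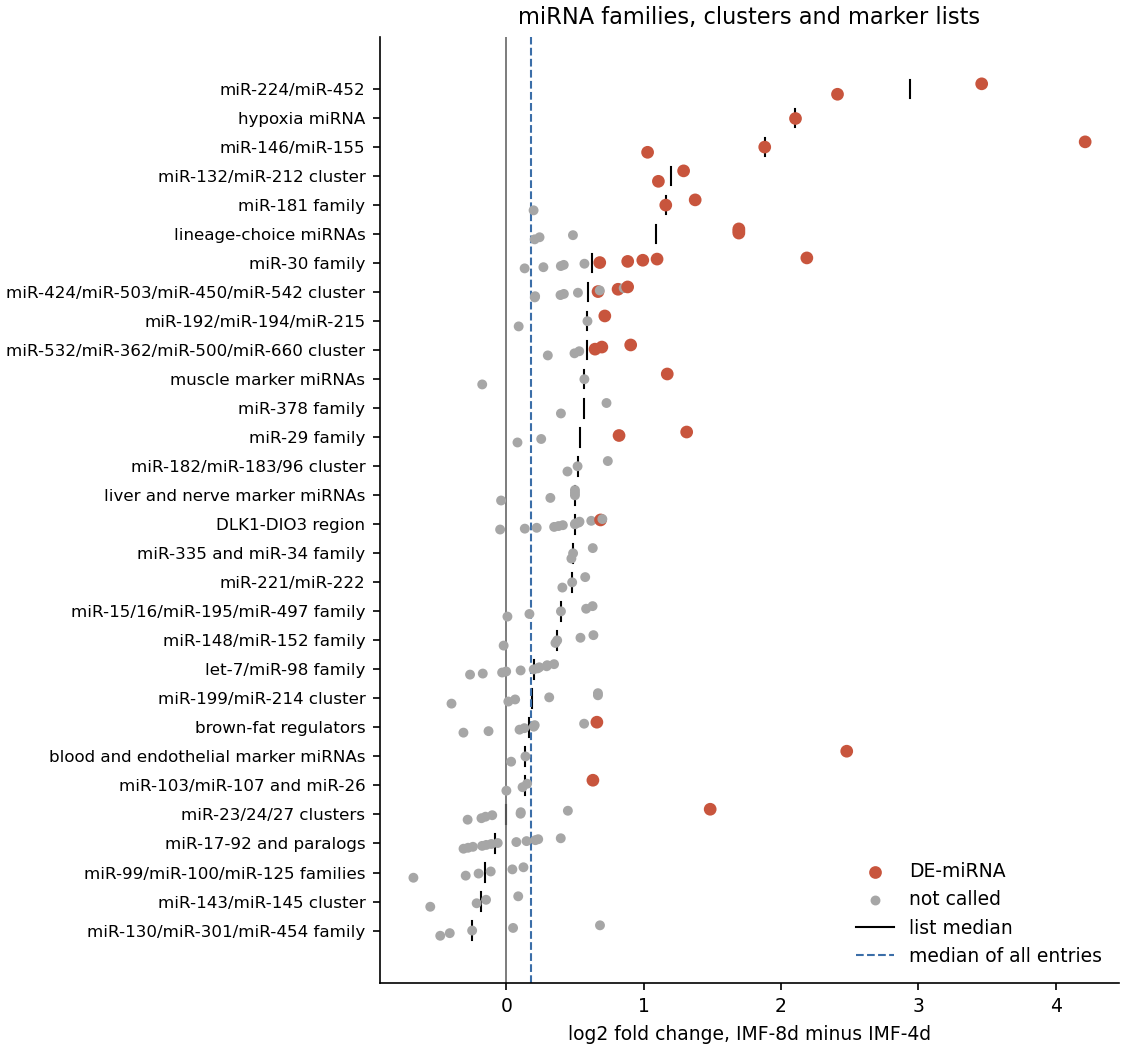
log2 fold change from IMF-4d to IMF-8d (horizontal) of each tested entry of 30 lists (rows, sorted by their median, black bar), with DE-miRNAs in red and other entries in grey. The lists of miR-224 with miR-452 and of miR-146 with miR-155 near the top hold red points alone, while those of miR-17-92, of miR-143 with miR-145 and of miR-130 at the bottom hold grey points alone, with medians below that of all entries, 0.18 (dashed).

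Among abundant miRNAs, the scaling of the libraries decided some calls. ssc-miR-100 had 32810, 24397 and 42253 TPM on day 4 and 26230, 16779 and 18849 TPM on day 8, with overlap, a log2 fold change of -0.68 and a limma adjusted p of 0.126. After median-of-ratios scaling the values were -0.86 and 0.0345. ssc-miR-145-5p (log2 fold change -0.55, limma adjusted p = 0.0590) and ssc-miR-6782-3p (-0.69, 0.0741) missed the criteria on TPM and met them after that scaling (adjusted p = 0.0130 and 0.0176), as did ssc-miR-199a-5p (-0.40 on TPM, limma adjusted p = 0.129, then 0.0280). ssc-miR-339-5p, with a log2 fold change of -0.52, overlapped and met them in neither. novel_miR_126 had 5.06, 7.79 and 4.26 TPM on day 4 and 1.98, 3.41 and 2.84 TPM on day 8, lower without overlap (log2 fold change -0.82), and was not called in either (adjusted p = 0.0663 and 0.0733).

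**Figure D3:**
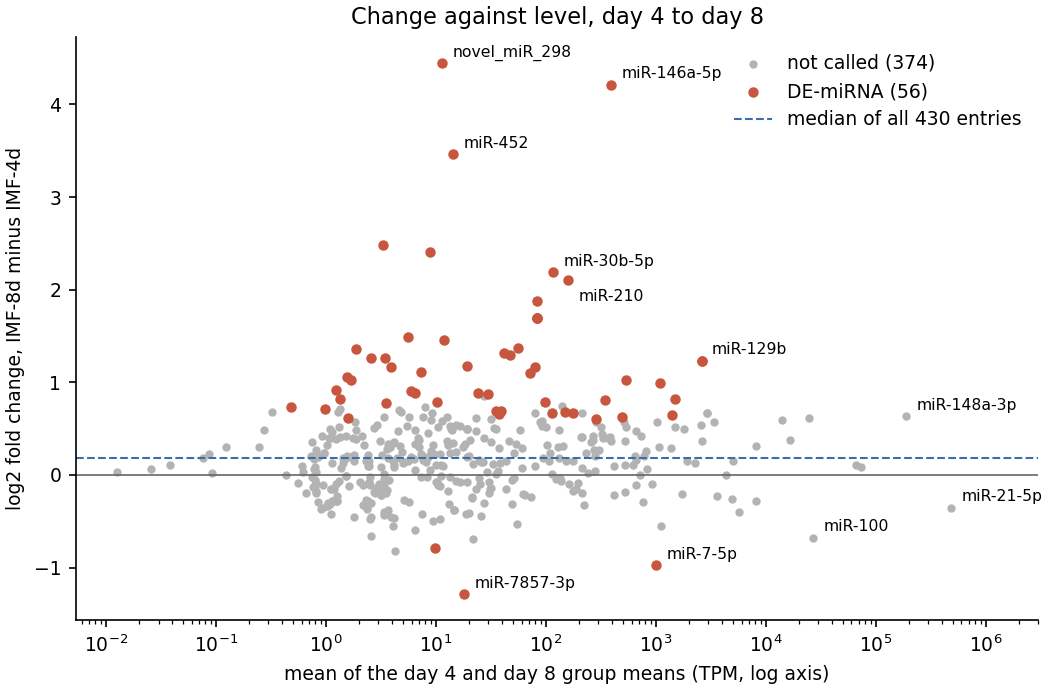
log2 fold change from IMF-4d to IMF-8d (vertical) against the mean of the 2 group means in TPM (log axis) for the 430 entries, with the 56 DE-miRNAs in red. Red points lie mostly above the median of all entries (dashed, 0.18), and the 3 red points under 0 are ssc-miR-7857-3p, ssc-miR-7-5p and novel_miR_667.

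Lower on day 8 were 3 miRNAs, and ssc-miR-7-5p was by far the most abundant of them. This miRNA is best known from neuroendocrine cells and as a repressor of EGFR signalling. Its hairpin lies in an intron of HNRNPK at chr10:30986180-30986288, although the mature sequence occurs in 3 places of the genome. It had 1441, 1399 and 1122 TPM on day 4 and 745, 678 and 587 TPM on day 8, so that every day 8 library was below every library of days 0, 2 and 4. The log2 fold change was -0.98 (SE 0.15, limma adjusted p = 6.46e-03), and the fall was called in each alternative. The other arm of the hairpin, ssc-miR-7-3p, stood at 5.33, 6.82 and 8.61 TPM and then at 11.06, 14.04 and 9.61 TPM, an estimate in the opposite direction (log2 fold change 0.67, limma adjusted p = 0.0961) that was not called.

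ssc-miR-7857-3p had 23.4, 24.8 and 28.6 TPM on day 4 and 14.7, 7.89 and 8.22 TPM on day 8, after 38.2 on day 0 and 34.9 on day 2. Without IMF-8d replicate 2 its adjusted p was 0.0649 and without replicate 3 it was 0.0548. novel_miR_667, predicted on the strand opposite to an intron of SNX4, had 13.7, 10.6 and 14.005 TPM on day 4 and 7.17, 6.75 and 6.84 TPM on day 8 (log2 fold change -0.79 ± 0.17 SE, limma adjusted p = 0.0220). Its mean was 27.2 on day 0 and 18.4 on day 2, above that of day 4. This call was lost without IMF-4d replicate 1 and without each IMF-8d replicate, with adjusted p from 0.067 to 0.11. None of the 3 falls belongs to a list described above.

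Of the 53 risers, 9 were newly predicted miRNAs, of 160 tested, and 44 were known ones, of 270 tested. Over all 430 entries 12.3% rose. novel_miR_298 went from 3 reads in the IMF-4d libraries together (3, 0 and 0) to 927 reads (326, 320 and 281) in IMF-8d, a ratio of 281 with an exact 95% interval of 95.9 to 1365 from the counts. The day 8 libraries agree closely at 24.9, 21.4 and 21.6 TPM. This miRNA is among the 6 DE-miRNAs with no sequence at hand, so it has no seed or place here. novel_miR_683 rose from 6.13, 5.54 and 5.77 TPM to 15.5, 19.9 and 17.9 TPM (log2 fold change 1.46 ± 0.17 SE, limma adjusted p = 1.45e-03). It lies in an exon of a long non-coding RNA on an unplaced scaffold, in one group with ssc-miR-381-3p, ssc-miR-382 and other miRNAs of the DLK1-DIO3 region, 14 tested entries in all, of which it was the 1 called. novel_miR_650, with no sequence at hand, was the most abundant new riser, at 918, 974 and 1353 TPM on day 4 and 1683, 1873 and 2130 TPM on day 8 (limma adjusted p = 0.0229), and its call was kept in 1 of the 6 fits that left out a library. novel_miR_11 has 12286 exact copies in the genome, so its reads cannot be placed.

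Positions were found for 49 of the 56 DE-miRNAs, by precursor except for ssc-miR-505, which was placed by its RefSeq mature miRNA. novel_miR_11 is counted at the place of its precursor, outside genes, although its reads cannot be placed. Of these, 21 lie in an intron on the strand of the gene, 4 in an intron on the opposite strand, 3 in an exon and 21 outside annotated protein-coding and long non-coding genes. The shares were 42.9%, 8.16%, 6.12% and 42.9%, beside 46.2%, 9.01%, 4.5% and 40.2% of the 333 tested entries with a position. Both arms passed the filter in 59 hairpins, and in 13 of them at least 1 arm was called. In 3 of the 13, those of miR-30a, miR-30c and miR-532, both arms were called. In 12 of the 13 both arms had estimates of one sign, as in 45 of all 59, and miR-7 was the exception among the 13. The widest gap between arms of one sign was that of miR-30b, 2.19 for the 5′ arm and 0.42 for the 3′ arm on the log2 scale, the latter at 1.18 and 1.85 TPM.

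Lists of miRNAs of other cell types held 2 risers among 11 tested entries, 1 of muscle and 1 of blood, beside 12.3% called higher over all entries. Among the 11, 3 entries of miR-9 hold the same values. Of 7 muscle entries 3 were tested, with a median log2 fold change of 0.57 beside 0.18 over all entries, and ssc-miR-133a-3p rose, from 9.77, 11.9 and 12.2 TPM to 28.3, 23.995 and 27.7 TPM (log2 fold change 1.17 ± 0.16 SE, limma adjusted p = 3.63e-03). The more abundant ssc-miR-1 had 818, 672 and 959 TPM on day 4 and 1145, 1595 and 943 TPM on day 8, with overlap (limma adjusted p = 0.130), and the sum of the list ran from 696 to 985 TPM on day 4 and from 982 to 1632 TPM on day 8. The remaining tested entry, ssc-miR-499-5p, had 16.5, 11.97 and 12.96 TPM on day 4 and 14.5, 11.4 and 10.5 TPM on day 8, with a log2 fold change of -0.18 that was not called. ssc-miR-133b, under the filter, had 1, 4 and 3 reads on day 4 and 10, 12 and 8 on day 8. ssc-miR-206, the miRNA most particular to skeletal muscle, had at most 9 reads in a library.

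Of 9 blood and endothelial entries, 3 were tested and ssc-miR-486 rose, a miRNA of an ANK1 intron found in red cells and in muscle. It had 7, 1 and 3 reads in the IMF-4d libraries and 87, 89 and 81 in the IMF-8d libraries, a ratio of 21.2 with an exact 95% interval of 11.7 to 43.1 (limma adjusted p = 2.37e-04). ssc-miR-144, ssc-miR-150 and ssc-miR-223 were at 0 reads in the 6 libraries and ssc-miR-451 at 11 or fewer. The leukocyte entry ssc-miR-142-3p had 9, 7 and 3 reads on day 4 and 12, 2 and 8 on day 8. The endothelial ssc-miR-126-3p, which makes up most of the list's sum, had 30.5, 18.02 and 27.7 TPM on day 4 and 34.1, 24.1 and 25.1 TPM on day 8, with overlap, and was not called. The list's sum ran from 20.02 to 32.5 TPM on day 4 and from 31.3 to 42.8 on day 8. The 5 epithelial entries summed to 0.257 to 0.852 TPM on day 4 and 0.381 to 0.461 TPM on day 8, and 5 of 7 liver and nerve entries were tested with none called. The part of such cells in the results was not tested.

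The earlier steps of the time course were set beside the last. In IMF-2d vs IMF-4d, which shares the IMF-4d libraries, 0 entries met the criteria by limma, with 65 at an unadjusted p under 0.05, and the median log2 fold change of the 53 risers was -0.09 beside -0.10 for all 430 entries. In IMF-0d vs IMF-2d, which shares no library with the day 4 to day 8 comparison, these medians were 0.10 and 0.01. For 47 of the 53 risers, the 3 IMF-8d libraries lay above all 9 libraries of days 0, 2 and 4 (19.3% of all 430 entries did so), and the 3 falls lay below all 9 (5.58%). The day 4 libraries are among the 9, and the calls already set day 8 apart from them, so the nearer background is the 131 entries with day 8 above day 4, of which 83 (63.4%) lay above all 9, and the 34 below, of which 24 (70.6%) lay below all 9.

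**Figure D4:**
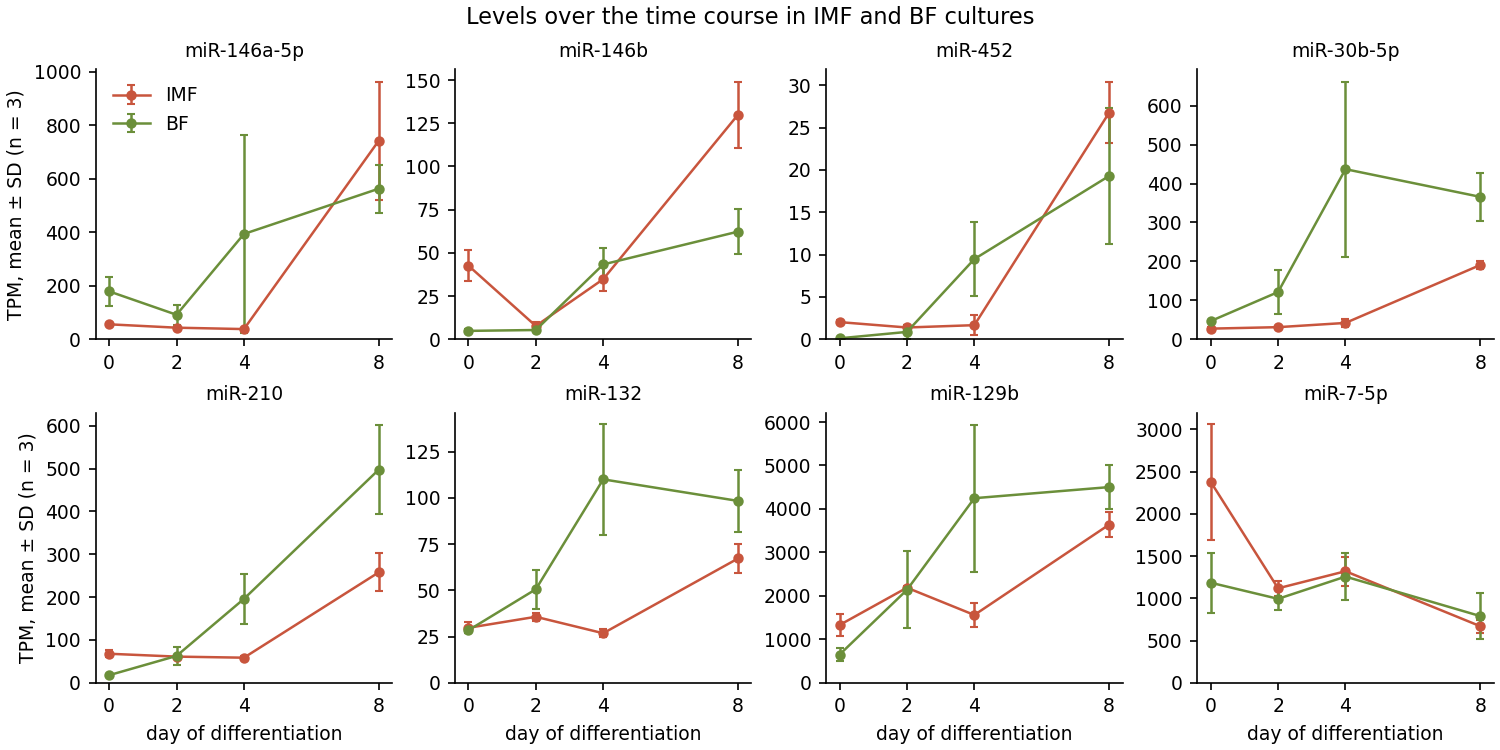
Mean TPM ± SD (n = 3 libraries) on days 0, 2, 4 and 8 in IMF (red) and BF (green) cultures for 8 DE-miRNAs of IMF-4d vs IMF-8d. The IMF lines of the first 7 are highest on day 8, and that of ssc-miR-7-5p is lowest there, while several BF lines (ssc-miR-30b-5p, ssc-miR-132, ssc-miR-129b) are already high on day 4.

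The changes were set beside those of subcutaneous cells. The change from day 4 to day 8 was tested against that of BF by the contrast (IMF-8d minus IMF-4d) minus (BF-8d minus BF-4d) over the 24 libraries. It had an FDR under 0.05 by limma for 53 of 430 entries (12.3%), larger in IMF for 44 (10.2%) and smaller for 9 (2.09%). Changes are compared with their sign, so a rise in IMF beside a fall in BF counts as larger in IMF. Of the 53 risers of IMF, 24 were among the 44 and none among the 9. The risers were chosen on the IMF difference that this contrast contains, which favours a larger change in IMF, so these counts and the contrast values of single risers are a description and no test of them. The 9 were all newly predicted miRNAs and none was a DE-miRNA of IMF, novel_miR_126 among them (-1.83). The median log2 fold change of the 53 risers was 0.19 in BF-4d vs BF-8d beside 0.01 over all entries, and 6 of the 53 were called higher there, beside 10 of all 430 entries (2.33%). Both counts take the miR-218 entries, which hold nearly the same values, separately. In either direction 13 entries (3.02%) were called in BF. The BF-8d libraries held from 4954845 to 12836120 reads, fewer than any IMF-8d library.

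In BF, ssc-miR-30b-5p had 167, 138 and 59.5 TPM on day 2, 178, 565 and 569 TPM on day 4 and 420, 380 and 298 TPM on day 8. Thus 2 of the 3 BF-4d libraries already stood above the IMF-8d libraries, and the difference between the 2 changes was 2.28 on the log2 scale (SE 0.47, limma adjusted p = 2.19e-03). ssc-miR-132 likewise had 77.2, 136.6 and 116 TPM in BF-4d and 116, 95.9 and 83.2 TPM in BF-8d, and the difference of the changes was 1.42 (limma adjusted p = 1.44e-03).

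For ssc-miR-146a-5p the BF-4d libraries were at 188, 172 and 820 TPM and the BF-8d libraries at 466, 576 and 645 TPM, so replicate 3 of BF-4d stood apart from the others. The difference of the changes, 3.32, had a limma adjusted p of 2.09e-04 and was called in each of the 19 alternatives. ssc-miR-210 and miR-218 were called in both cultures. ssc-miR-210 had 140, 192 and 256 TPM in BF-4d and 392, 503 and 598 TPM in BF-8d (log2 fold change 1.36, limma adjusted p = 0.0183), and its difference between IMF and BF was 0.74 with an adjusted p of 0.153. For miR-218 that difference was 0.15, with an adjusted p of 0.809.

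The earlier step of BF was looked at as well. Its libraries enter the filter on the mean over the 24 libraries but not the test that called the risers. From BF-2d to BF-4d, the 3 later libraries lay above the 3 earlier ones for 27 of the 53 risers, 50.9%, beside 105 of all 430 entries (24.4%), and below them for 1 and 45 entries. The median log2 change of the risers in that step was 0.72 beside 0.13 over all entries. In BF-4d, 29 of the 53 risers had a mean above that of IMF-8d, beside 303 of all 430 entries (70.5%). The risers were chosen for high IMF-8d values, which favours a lower share among them, so nothing is read from it. The IMF-2d libraries entered the filter but not the calls. Against them, 44 of the 53 risers had a higher mean in BF-4d, beside 279 of all 430 entries (64.9%).

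**Figure D5:**
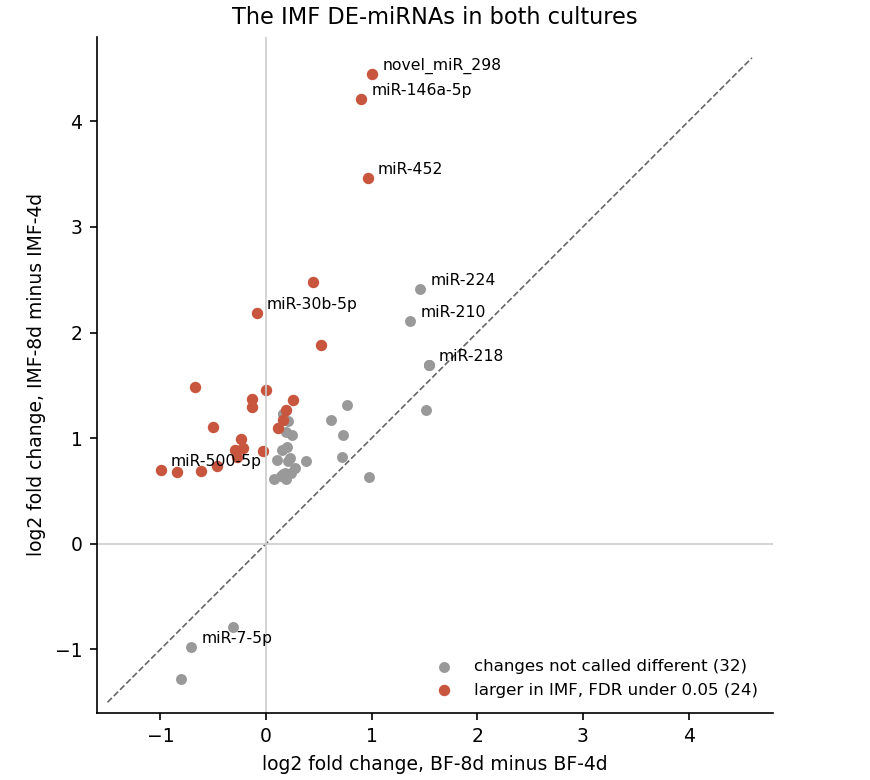
log2 fold change of the 56 IMF DE-miRNAs in IMF (vertical) and in BF (horizontal) from day 4 to day 8, with the line of equal change dashed. Red points, 24 miRNAs whose change, taken with its sign, was larger in IMF with an FDR under 0.05, lie well above the line. ssc-miR-210, miR-218 and miR-224 lie closer to it on the right, and the 3 falls lie at the lower left.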

How the data were processed

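Small RNA reads of the 24 libraries were processed by the authors, who aligned them perfectly to Sscrofa11.1 (Bowtie), discarded other annotated small RNA, matched known miRNAs to miRBase and used miRDeep2 for predicted ones. The deposited values, called TPM by the authors, are RPM: reads per 1000000 reads on miRNAs. Whole reads were recovered (largest distance from a whole number 0.000452). Entries averaging 1 TPM or more were tested with limma 3.58.1 (eBayes with trend, R 4.3.3) on log2(TPM + 1), with Benjamini-Hochberg FDR under 0.05 and fold change above 1.5. Alternatives used edgeR 4.0.16, DESeq2 1.42.0, other scaling, filters, pseudocounts and left-out libraries. A log2 fold change understates that of low entries. Fits were tested on simulated data. The libraries of a group differed by more than counting error (chi-square per degree of freedom at least 177).

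Precursors and mature sequences were matched exactly to Sscrofa11.1, with RefSeq genes as annotation. The groups came from the sample titles. The entries, lists and tests were chosen with earlier results of these data known. Named are the 12 largest rises and all falls, called or most abundant members of lists, the 10 most abundant entries, DE-miRNAs with the smallest interaction p, the miRNAs of the study's intramuscular network, and entries sharing a sequence, seed, hairpin or cluster with a DE-miRNA. novel_miR_650, novel_miR_11 and ssc-miR-129b were named after their values were seen. The mRNA libraries and target genes were not analysed here.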

Additional observations from a re-analysis of the deposited data

Results flagged for a closer look

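The following miRNAs are listed because their change from day 4 to day 8 differed between IMF and BF by the limma interaction contrast over 24 libraries (adjusted p under 0.05). Values are the change in IMF minus the change in BF on the log2(TPM + 1) scale, and their causes were not tested. All are risers of IMF, and that choice favours a larger change in IMF.

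Of the 24, 14 kept this call in every alternative that held them. These were novel_miR_298 (3.44), ssc-miR-146a-5p (3.32), ssc-miR-452 (2.50), ssc-miR-30b-5p (2.28), ssc-miR-486 (2.04), ssc-miR-500-5p (1.69), ssc-miR-212 (1.61), ssc-miR-30c-5p (1.52), ssc-miR-181b (1.503), ssc-miR-132 (1.42), ssc-miR-493-5p (1.30), ssc-miR-30a-5p (1.23), novel_miR_11 (1.19) and ssc-miR-7141-5p (1.10).

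The other 10 lost the call in at least 1 alternative. ssc-miR-24-2-5p (2.16), ssc-miR-146b (1.36) and novel_miR_650 (1.09) kept it in 17 of 18, 18 of 19 and 14 of 19. novel_miR_683 (1.46), ssc-miR-30c-3p (1.17), ssc-miR-532-3p (1.12), novel_miR_919 (1.08), ssc-miR-133a-3p (1.01), ssc-miR-30a-3p (0.98) and ssc-miR-505 (0.91) kept it in between 4 and 8 alternatives.

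In BF, ssc-miR-500-5p, ssc-miR-30c-5p and ssc-miR-493-5p had log2 fold changes of -0.998, -0.84 and -0.61 from day 4 to day 8, which were not called. ssc-miR-505 stood at 39.9 TPM in BF-4d and 39.2 TPM in BF-8d.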

How the results depend on the processing

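The 56 DE-miRNAs, 53 higher and 3 lower, became 28 with 26 higher without the filter. Leaving out 1 library gave 32 to 62 in all, 31 to 59 higher and 1 to 6 lower. Lower entries numbered 6 with a mean of at least 10 TPM, 6 in one fit of all 24 libraries, 11 after median-of-ratios scaling, 22 by edgeR and 23 by DESeq2. The 53 entries whose change differed between IMF and BF became 30 with a mean of at least 10 TPM and 34 by edgeR, with 36 to 70 when 1 library was left out. Entries without overlap between days numbered 280 without the filter and 106 with a mean of at least 10 TPM. The cause of these shifts was not tested. ssc-miR-30e-5p, not called (log2 fold change 0.27), lay at -0.048 by edgeR, at -0.058 by DESeq2 and between -0.056 (without IMF-4d replicate 3) and 0.46 (without IMF-4d replicate 1) when 1 library was left out.

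No pairing of the libraries by replicate number was seen, which does not exclude one: deviations of same-numbered libraries correlated at 0.013, 0.023 and -0.149. With the replicate number as a block, 44 DE-miRNAs were found (42 higher), and 52 entries differed between IMF and BF. Of the 56, 21 were called in every alternative that held them. With 3 libraries a group, entries near the floor of 3 reads carry the widest counting error.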
